A study of Mus musculus with 6 samples.

Results

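The heat shock response genes examined here are 10 genes, *Hsf1*, *Hspa1a*, *Hspa1b*, *Hspa8*, *Hsph1*, *Dnajb1*, *Bag3*, *Hsp90aa1*, *Hsp90ab1* and *Hspb1*. They were chosen by gene symbol, among the 23183 symbols listed for every library, as genes that stress and tissue handling can induce. All 10 were found. RNA was sequenced from cerebral microvessels of 3 WT and 3 TEKCRIF1 KO mice, with 1 library per mouse. Both groups carried a Cre recombinase driven by the Tek promoter and were labelled C57BL/6. WT mice had an intact *Crif1* gene (TEK-cre, *Crif1* +/+), whereas KO mice had floxed *Crif1* alleles (TEK-cre, *Crif1* flox/flox), which Cre removes in Tek-expressing cells, mainly endothelial cells. The ages of the mice are not given in the sources used here. Microvessels were homogenized from brain, spun through dextran and caught on a strainer, so the RNA also came from pericytes, astrocyte endfeet and other attached cells, in which *Crif1* need not be deleted.

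Heat shock proteins are chaperones that hold or refold other proteins. When unfolded protein builds up, the transcription factor HSF1 is released from chaperones, forms trimers and binds heat shock elements in the promoters of inducible chaperone genes. The HSP70 proteins work with J-domain proteins, which deliver clients and start ATP hydrolysis, and with nucleotide exchange factors, which release the client. HSP90 takes over clients such as kinases and hormone receptors, and small heat shock proteins hold unfolded chains without using ATP. Freshly dissociated tissue often carries this response.

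Promoter sequences show how close the inducible pair *Hspa1a* and *Hspa1b* is, and where elements of the HSF1 type lie. The RefSeq promoter table for GRCm38.p6 (the build of mm10, which the submitters' processing notes name) held 6 of the 10 genes. It had no entry for *Hsf1*, *Hspa8*, *Hsp90aa1* and *Hsp90ab1*. Each window of 250 bases before and 50 after the start site was searched for GAANNTTC and TTCNNGAA, both of which read the same on either strand and can overlap each other. Either motif was found in 15.1% of the 32851 promoters in the table, and in 5 of the 6 genes. A match is a description of letters and not evidence of binding. The 250 bases before the start site of both HSP70 genes and of *Hspb1* are given 5′ to 3′, with every match in capitals. They are chr17:34972157-34972406 (minus strand) for *Hspa1a*, chr17:34959239-34959488 (minus strand) for *Hspa1b* and chr5:135887669-135887918 (plus strand) for *Hspb1*.
Hspa1a: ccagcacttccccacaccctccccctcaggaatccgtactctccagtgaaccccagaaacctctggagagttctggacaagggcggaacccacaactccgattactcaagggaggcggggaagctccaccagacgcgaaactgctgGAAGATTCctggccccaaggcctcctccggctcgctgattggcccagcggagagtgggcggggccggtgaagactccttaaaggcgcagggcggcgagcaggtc
Hspa1b: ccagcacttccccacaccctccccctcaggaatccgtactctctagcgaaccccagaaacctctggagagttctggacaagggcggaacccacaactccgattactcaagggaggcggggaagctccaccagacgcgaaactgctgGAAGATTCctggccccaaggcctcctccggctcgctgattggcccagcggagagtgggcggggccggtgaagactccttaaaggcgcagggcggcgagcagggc
Hspb1: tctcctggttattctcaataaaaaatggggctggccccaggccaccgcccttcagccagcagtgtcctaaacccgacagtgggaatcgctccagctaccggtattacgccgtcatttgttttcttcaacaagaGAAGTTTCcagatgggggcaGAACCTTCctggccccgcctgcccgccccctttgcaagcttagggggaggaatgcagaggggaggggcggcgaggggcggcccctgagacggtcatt

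The *Hspa1a* and *Hspa1b* promoters were identical at 247 of these 250 positions. They differed by C44T, T47C and T249G, with the *Hspa1a* base first and positions counted from 1 at the 5′ end of the printed sequence. Both held GAAGATTC from −104 to −97, so the matched element and its surroundings are the same in both genes. *Hspb1* held 2 matches, from −117 to −110 and from −97 to −90. For 2 more genes only 1 match and its flank are printed. The *Hsph1* stretch is chr5:149636352-149636379 (minus strand), with the capitals from −33 to −26, and the *Bag3* stretch is chr7:128523615-128523632 (plus strand), with the capitals from 43 to 50 after the start. The same *Hsph1* window held 3 matches in all. The other 2 overlap each other in 1 stretch, TTCTGGAA from 37 to 44 and GAAAGTTC from 42 to 49 after the start. The second *Hsph1* window in the table held the same 3. *Dnajb1* had no exact match in its 2 windows, and elements with a changed letter were not searched for. The 250 bases before the second *Dnajb1* start (chr8:83608298-83608547) lie inside the annotated gene (chr8:83608193-83612653).
Hsph1: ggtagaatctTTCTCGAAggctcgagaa
Bag3: gatgggaccaGAAGTTTC

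The libraries differed in depth and composition. From the spacing of low FPKM values and the annotated lengths, the libraries held an estimated 6600000 (KO 2) to 12000000 (KO 3) fragments. The FPKM values summed to between 381187 (KO 2) and 539408 (KO 1). *Crif1*, listed as *Gadd45gip1*, was lower in every KO mouse than in every WT mouse, with a KO mean at 56.7% of the WT mean. Its log2 fold change was −0.77 (standard error 0.22, adjusted limma p = 0.841), and the exact two-sided permutation p of 0.1 is the smallest that 3 mice against 3 allow. Markers of endothelial cells (7 genes, summed FPKM 717 to 1053), pericytes (5 genes, 780 to 1279) and astrocytes (5 genes, 411 to 620) were present in every library, and so were neuronal ones (5 genes, 103 to 282). The choroid plexus markers (4 genes) summed to between 2844 and 3309 in WT mice, and to 8772, 2941 and 10524.5 in KO 1 to 3.

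Values are given in FPKM (fragments normalised to transcript length and to library size), always in the order of mouse 1, 2 and 3 within a group, and each fold change is limma's estimate on log2(FPKM + 1). In KO mice, 3 of the 10 genes had a higher mean and 7 a lower one. None had an adjusted limma p under 0.05 (0 of 10), as for all 14247 genes tested (0%), and the smallest adjusted p of any gene was 0.841. One of the genes, *Bag3*, had an unadjusted limma p under 0.05. That is 10% of the members, beside 5.88% of all genes tested (3.11% lower and 2.77% higher in KO mice), and rests on a single gene. The split of all genes at that threshold, 395 higher and 443 lower, became 399 and 287 with the replicate block and the GC correction together, and 292 and 460 with FPKM scaled to the same sum. For 2 genes, *Bag3* and *Hspa1b*, every KO value was below every WT value, and for 0 genes the reverse held. Such a separation was found for 11.1% of all genes tested (5.7% with KO below WT and 5.37% with KO above WT). The median log2 fold change of the 10 genes was −0.088, beside −0.0062 for all genes tested. This direction depends on KO 2, without which the median was 0.065 and 6 of the 10 genes were higher and 4 lower, whereas without KO 1 the median was −0.19. All 10 genes passed the filter of a mean of 1 FPKM.

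**Figure D1:**
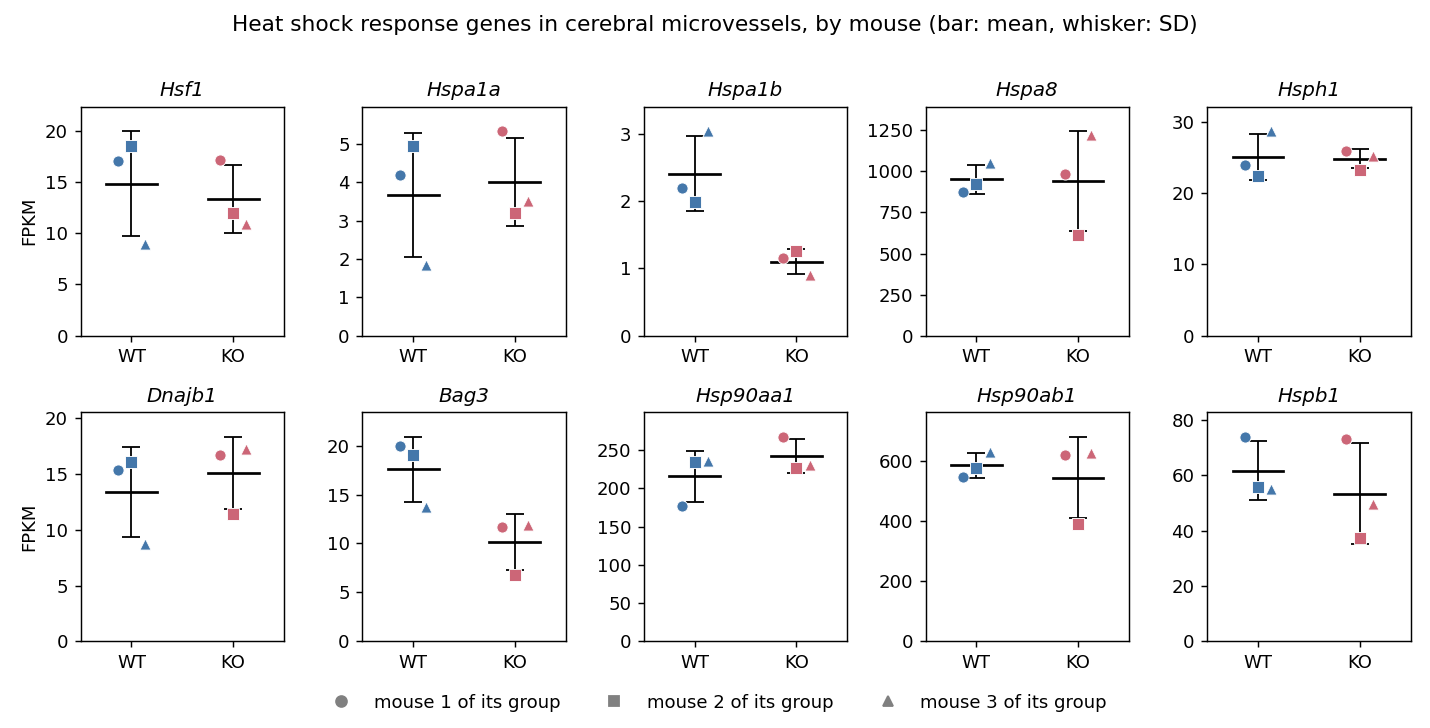
FPKM of each heat shock response gene in the 3 WT (blue) and 3 KO (red) mice, with a linear axis from 0 in each panel, the mean as a bar and the SD as a whisker. The groups overlap in 8 panels, while all KO points of *Bag3* and *Hspa1b* lie under all WT points.

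*Hsf1*, the regulator of the response, is controlled mainly at the level of its protein. Its transcript stood at 17.0, 18.5 and 8.96 FPKM in WT 1 to 3 and at 17.1, 11.9 and 10.9 FPKM in KO 1 to 3. WT 3 had the lowest value of all, and the groups overlapped widely. The means were 14.8 ± 5.12 FPKM for WT and 13.3 ± 3.34 FPKM for KO (SD, 3 mice each). On the log2 scale the difference was −0.11 with a 95% interval of −0.76 to 0.55 (adjusted limma p = 0.972, exact permutation p = 0.9). The data thus leave room for a moderate difference of *Hsf1* in either direction.

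*Hspa1a* and *Hspa1b*, neighbours on chromosome 17 (chr17:34969190-34972156 and chr17:34956436-34959238, both on the minus strand), encode the stress-inducible HSP70, which is scarce in unstressed cells. *Hspa1a* was measured at 4.18, 4.96 and 1.85 FPKM in WT 1 to 3, and at 5.33, 3.19 and 3.51 FPKM in KO 1 to 3. *Hspa1b* was measured at 2.19, 1.99 and 3.04 FPKM in the WT mice and at 1.15, 1.26 and 0.896 FPKM in the KO mice, in the same order. The *Hspa1a* values overlapped, and the lowest belonged to WT 3. Every *Hspa1b* value in KO mice was below every WT value, and the highest again belonged to WT 3. By WT mean, the genes lay above 52.4% (*Hspa1a*) and 46.9% (*Hspa1b*) of all symbols. That list includes symbols without signal, with 6368 (WT 3) to 6964 (WT 2) of the 23183 at 0 in a WT library. Among detected genes the pair therefore stood lower.

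The mean of *Hspa1b* was 2.41 ± 0.556 FPKM for WT and 1.10 ± 0.186 FPKM for KO (SD, 3 mice each, exact permutation p = 0.1), a KO mean at 45.8% of the WT mean. The difference was larger than the SD of either group. On the log2 scale this was −0.69 (standard error 0.33), with a 95% interval from −1.41 to 0.04 and an adjusted limma p of 0.841. It was −1.05 with a pseudocount of 0.1 and −0.53 with a correction for GC content. The unadjusted limma p of 0.0609 ranged from 0.0134 to 0.194 under the alternatives. For *Hspa1a* the log2 fold change was 0.15, with a 95% interval of −0.61 to 0.91 (adjusted limma p = 0.964, exact permutation p = 0.8). The *Hspa1a* value was −0.17 without WT 3, −0.033 without KO 1, 0.36 without WT 2 and 0.31 with a correction for GC content. The estimated number of fragments behind *Hspa1b* was 50 to 100 in WT mice and 23 to 30 in KO mice. The counting error alone was 18.2% to 20.7% of the value in KO mice and at most 14.1% in WT mice.

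The identity of these transcripts bears on how reads are divided between them. Of the 2704 windows of 100 bases in the *Hspa1b* transcript, 49.9% also occur in *Hspa1a*, and 56.5% of the 2868 windows of *Hspa1a* occur in transcripts of other genes. A read from such a window cannot be placed on one gene by itself, although its mate could place it if it lay outside the shared stretch. How the authors' counting treated such reads is not given in the sources used here. *Hspa1a* also overlaps *Gm20481*, on the opposite strand, over 2225 bases, and whether the counting used strand is not given. The values of each single gene are thus uncertain. The summed FPKM of both was 6.37, 6.95 and 4.89 in WT 1 to 3 and 6.48, 4.45 and 4.41 in KO 1 to 3. With the sum in place of both genes, the groups overlapped at a log2 fold change of −0.22 (standard error 0.25, 95% interval −0.78 to 0.35, adjusted limma p = 0.932, exact permutation p = 0.3). The value for the sum ranged from −0.37 (without KO 1) to −0.12 (without WT 2) with 1 library left out, and was −0.049 with a correction for GC content.

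*Hspa1a* made up 65.6%, 71.4% and 37.8% of that sum in WT 1 to 3, and 82.3%, 71.7% and 79.7% in KO 1 to 3. The KO shares all lay above the WT shares, but KO 2 and WT 2 were nearly equal (exact permutation p = 0.1). WT 3 stood apart from the other libraries, with less *Hspa1a* than *Hspa1b*. The lower *Hspa1b* of KO mice thus came with a sum that did not separate the groups, and the part played by divided reads was not tested.

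**Figure D2:**
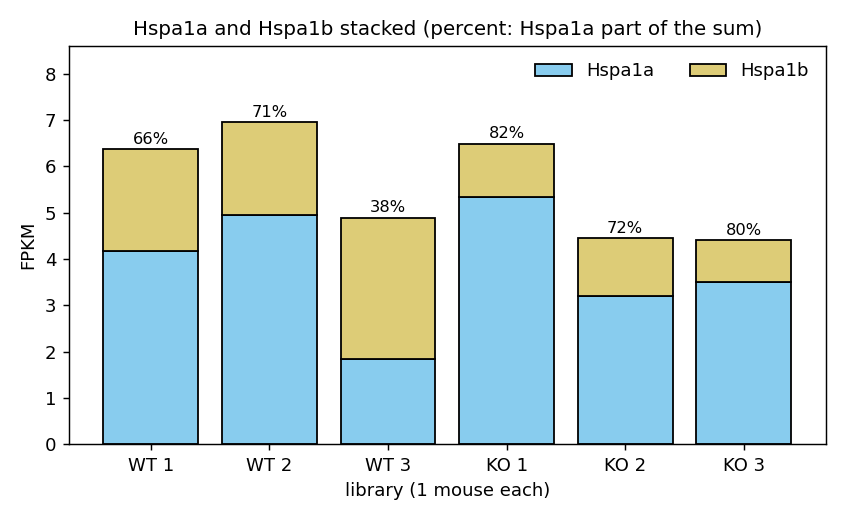
Stacked FPKM of *Hspa1a* (lower part) and *Hspa1b* (upper part) in each library, on an axis from 0, with the *Hspa1a* part of the sum as a percentage above each bar. The *Hspa1b* part is smaller in the 3 KO mice, whereas the whole bars of the groups overlap, and only in WT 3 is the *Hspa1b* part the larger one.

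*Hspa8*, on chromosome 9, encodes the constitutive HSP70 of the cytosol, which also strips clathrin from coated vesicles. It had the highest FPKM of the 10 genes, above 99.8% of all symbols by WT mean. It stood at 878, 925 and 1051 FPKM in WT 1 to 3 and at 983, 615 and 1220 FPKM in KO 1 to 3. KO mice held both the lowest value (KO 2) and the highest (KO 3), so the KO SD of 305 FPKM exceeded the WT SD of 89.5 FPKM. The log2 fold change was −0.07, with a 95% interval of −0.78 to 0.64 (adjusted limma p = 0.986, exact permutation p = 0.9), and without KO 2 it was 0.21. Of the *Hspa8* windows of 100 bases, 32.1% occur in transcripts of other genes, most of them in *Gm26825*.

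The partners of HSP70 are described gene by gene, and were not tested against each other. *Dnajb1*, on chromosome 8, encodes the main inducible J-domain protein of the cytosol, and stood at 15.3, 16.1 and 8.76 FPKM in WT 1 to 3 and at 16.7, 11.4 and 17.2 FPKM in KO 1 to 3. As with *Hsf1* and *Hspa1a*, its lowest value was in WT 3. On the log2 scale the difference was 0.18, with a 95% interval of −0.42 to 0.79 (adjusted limma p = 0.949, exact permutation p = 0.5), and without WT 3 it was −0.07.

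*Hsph1*, on chromosome 5, encodes HSP110, an exchange factor of HSP70 that also keeps unfolded protein in solution. It was the steadiest of the 10 genes, at 23.9, 22.4 and 28.7 FPKM in WT 1 to 3 and 25.9, 23.3 and 25.2 FPKM in KO 1 to 3. Its highest value was 1.28 times its lowest. Its log2 fold change was −0.0055 with a 95% interval of −0.43 to 0.42 (adjusted limma p = 0.999, exact permutation p = 1). Its SD within the groups on the log2 scale was 0.14, larger than that of 5.67% of all genes tested.

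*Bag3*, on chromosome 7 (chr7:128523616-128546981, plus strand), encodes an exchange factor that couples HSP70 to small heat shock proteins and to autophagy, best known in muscle. It had the lowest p of the 10 genes. *Bag3* was measured at 19.9, 19.0 and 13.8 FPKM in WT 1 to 3 and at 11.7, 6.81 and 11.9 FPKM in KO 1 to 3. The highest KO value lay below the lowest WT value, by less than the spread within the groups. The mean was 17.6 ± 3.33 FPKM for WT and 10.1 ± 2.89 FPKM for KO (SD, 3 mice each, exact permutation p = 0.1), a KO mean at 57.7% of the WT mean. None of its windows of 100 bases occurs in a transcript of another gene (0%), although 612 bases of the locus overlap the annotated transcript *2610306O10Rik* on the same strand.

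The log2 fold change of *Bag3* was −0.76 (standard error 0.26), with a 95% interval from −1.34 to −0.18. The unadjusted limma p of 0.0157 became an adjusted p of 0.841. With 1 library left out in turn, the log2 fold change lay between −0.91 and −0.52, and the unadjusted limma p was above 0.05 without WT 1 (0.0588) and without WT 2 (0.0563). With FPKM scaled to the same sum in every library, the KO values of *Bag3* still lay below the WT values, and so did those of *Hspa1b*. In bulk RNA, fewer cells of a type and less RNA per cell cannot be told apart. Beside *Bag3*, the summed astrocyte markers (5 of 5 listed genes measured) were also lower in every KO mouse (411 to 452 FPKM) than in every WT mouse (544 to 620 FPKM). Of these 5 genes, *Gfap* and *Gja1* were lower in every KO mouse, and *Aqp4*, *Slc1a2* and *Aldoc* overlapped. The summed pericyte markers overlapped (780 to 1279 FPKM for WT, 829 to 930 FPKM for KO), as did those of smooth muscle (4 genes, 225 to 561 FPKM and 257 to 754 FPKM). Single markers were nonetheless lower in every KO mouse, namely 2 of 5 for pericytes (*Pdgfrb*, with a KO mean at 75.5% of WT, and *Anpep*, at 71.0%), 1 of 7 for endothelial cells (*Cdh5*, at 48.6%), 1 of 5 for oligodendrocytes (*Cnp*, at 64.0%) and 1 of 5 for microglia (*Cx3cr1*, at 72.8%), beside 5.7% of all genes tested that separated in this direction. The part of these markers in the *Bag3* difference was not tested.

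HSP90 of the cytosol is made from *Hsp90aa1*, its stress-inducible form on chromosome 12, and *Hsp90ab1*, its constitutive form on chromosome 17. *Hsp90aa1* had 177, 235 and 235 FPKM in WT 1 to 3 and 267, 227 and 231 FPKM in KO 1 to 3. *Hsp90ab1* had 548, 576 and 630 FPKM in the WT mice and 620, 389 and 625 FPKM in the KO mice, in the same order. The constitutive form was therefore the more abundant one per length in every library. The inducible form was lowest in WT 1 and the constitutive form in KO 2, and the groups overlapped for both.

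*Hsp90aa1* had a log2 fold change of 0.17, with a 95% interval of −0.32 to 0.66 (adjusted limma p = 0.94, exact permutation p = 0.6). It was 0.037 without WT 1, 0.056 with a correction for GC content and 0.070 with quantile normalization. For *Hsp90ab1* it was −0.13, with a 95% interval of −0.74 to 0.47 (adjusted limma p = 0.963, exact permutation p = 0.8). Without KO 2 the value for *Hsp90ab1* was 0.09. Of the *Hsp90aa1* windows of 100 bases, 47.5% occur in transcripts of other genes, mainly *Gm12346*, while 0% of the *Hsp90ab1* windows do.

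*Hspb1*, on chromosome 5, encodes HSP25, the mouse form of HSP27, a small heat shock protein that binds actin and is abundant in vessel walls. It stood at 73.9, 56.0 and 55.1 FPKM in WT 1 to 3 and at 73.3, 37.2 and 49.5 FPKM in KO 1 to 3. WT 1 and KO 1 were nearly equal at the top, and KO 2 was lowest. For *Hspb1* the log2 fold change was −0.25 with a 95% interval of −0.83 to 0.34 (adjusted limma p = 0.925, exact permutation p = 0.4). It was −0.020 without KO 2, −0.50 without KO 1 and −0.061 with a correction for GC content. Here 42.7% of the windows occur in *Hsp25-ps1* and another gene, so some reads cannot be placed by themselves.

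**Figure D3:**
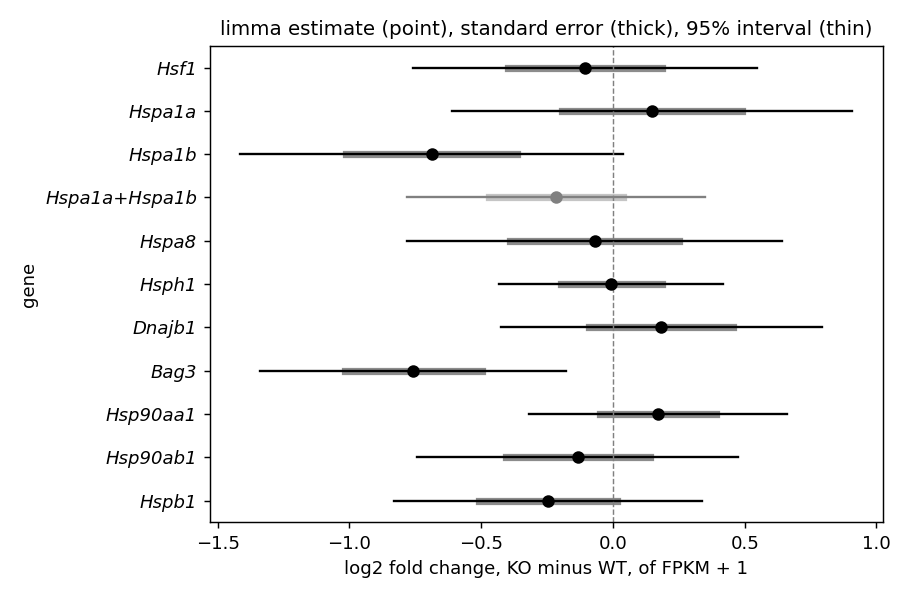
Log2 fold change (KO minus WT) of each gene on the log2(FPKM + 1) scale, with the limma estimate as a point, its standard error as a thick bar and its 95% interval as a thin bar; the sum of *Hspa1a* and *Hspa1b* is in grey. The interval of *Bag3* (−1.34 to −0.18) does not reach 0, before any adjustment for the number of genes, and the other intervals do.

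In order of WT mean FPKM, the genes were *Hspa8* (951), *Hsp90ab1* (585), *Hsp90aa1* (216), *Hspb1* (61.7), *Hsph1* (25.01), *Bag3* (17.6), *Hsf1* (14.8), *Dnajb1* (13.4), *Hspa1a* (3.66) and *Hspa1b* (2.41). The constitutive forms led, and the inducible HSP70 pair came last. The ranges of *Bag3*, *Hsf1* and *Dnajb1* over the WT mice overlapped, although the 3 genes kept this order within every WT mouse. In WT 3 *Hsf1* and *Dnajb1* were nearly equal (8.96 and 8.76 FPKM). The ranges of *Hspa1a* and *Hspa1b* overlapped too, and their order was reversed in WT 3. The other neighbours in this order did not overlap in WT mice, except that the lowest *Hsph1* value (22.4 FPKM) was close to the highest *Bag3* value (19.9 FPKM). In KO mice *Bag3* stood below *Hsf1* and *Dnajb1* in mean, at 10.1 FPKM against 13.3 and 15.1 FPKM. It was below *Dnajb1* in every KO mouse, but in KO 3 it was above *Hsf1* (11.9 against 10.9 FPKM).

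The differences between mice were larger than those between genotypes for most of the genes. For 7 of the 10 genes the difference in means was smaller than the SD of either group. Within the groups, the SD on the log2 scale exceeded the median of all genes tested (0.33) for 6 of the 10 genes, and was largest for *Hspa1a* (0.46, above that of 74.1% of the genes tested). The genes did not share 1 profile over the libraries. WT 3 had the lowest value of *Hsf1*, *Hspa1a* and *Dnajb1* and the highest of *Hspa1b*, *Hsph1* and *Hsp90ab1*. KO 2 had the lowest value of *Hspa8*, *Hsp90ab1*, *Hspb1* and *Bag3*, and in KO 2 all 10 genes were below their own mean over the 6 libraries, *Hsp90aa1* only just.

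Averaged over the 10 genes, log2(FPKM + 1) was 0.35 below the genes' own means in KO 2, where the median of all genes tested was 0.02 below. In the other 5 libraries the average lay between −0.06 (WT 3) and 0.16 (WT 2). KO 2 was also the library with the lowest estimated depth and the lowest FPKM sum, although it listed the fewest symbols at 0 (6159). When FPKM was scaled to the same sum in every library, 6 of the 10 genes stayed below their own mean in KO 2, and the average became −0.15, beside 7 genes and an average of −0.11 in KO 1. The low place of KO 2 thus depends in part on the scale, and depth and composition of that library cannot be told apart from the mouse.

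**Figure D4:**
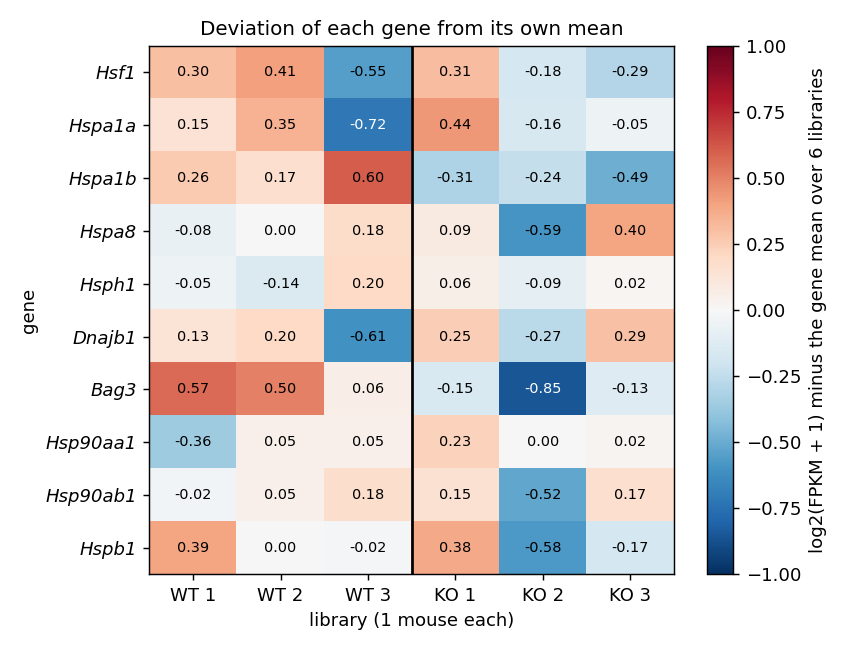
Deviation of log2(FPKM + 1) from the gene's own mean over the 6 libraries, with genes in rows, libraries in columns and a vertical line between WT and KO mice. KO 2 is at or below 0 for all genes, and WT 3 combines low *Hsf1*, *Hspa1a* and *Dnajb1* with high *Hspa1b*.

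The 5 other genes whose profile over the 6 libraries was most like the average of the 10 genes were *Tpm3*, *Polb*, *Gpsm3*, *Igfbp4* and *Lyz2*, with a Pearson correlation between 0.990 and 0.998. Over only 6 libraries, 1.49% of the 14237 genes compared had a correlation above 0.9. All 5 were lowest in KO 2, as the average was. *Tpm3*, which encodes a tropomyosin, had 168, 171 and 142 FPKM in WT 1 to 3 and 172, 109 and 143 FPKM in KO 1 to 3.

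Other genes of the chaperone network were described in lists, none of which holds any of the 10 genes. Of 69 listed genes, 68 were measured and 64 tested, of which 41 had a higher mean log2 value in KO mice and 23 a lower one. None passed adjustment (0 of 64), and 2 had an unadjusted limma p under 0.05, which is 3.12% beside 5.88% of all genes. One of these was higher in KO mice (*Hspb6*) and one lower (*Fkbp5*). The median log2 fold change of the 64 genes was 0.08. Every KO value was above every WT value for *Dnaja1*, *Ppid* and *St13*, and below it for *Hspa2*, *Fkbp5* and *Unc45a*. These 6 genes are 9.38% of the 64, beside 11.1% of all genes tested.

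*Fkbp5* encodes a co-chaperone of HSP90 at steroid receptors and is itself induced by glucocorticoids. It was measured at 37.3, 22.4 and 27.6 FPKM in WT 1 to 3 and at 18.1, 10.5 and 19.2 FPKM in KO 1 to 3. No KO value reached a WT value, as with *Bag3* (log2 fold change −0.84, standard error 0.28, adjusted limma p = 0.841, exact permutation p = 0.1). Of the 12 tested HSP90 co-chaperones, 8 had a higher mean and 4 a lower one, with a median log2 fold change of 0.12. *Unc45a*, a myosin chaperone, was lower in every KO mouse (log2 fold change −0.37), and *Ppid*, a cyclophilin, higher in every KO mouse (0.33). Neither had an unadjusted limma p under 0.05.

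*Hspb6* encodes HSP20, a small heat shock protein of smooth muscle and heart. It stood at 15.2, 13.7 and 17.5 FPKM in WT 1 to 3, and at 33.9, 14.3 and 46.0 FPKM in KO 1 to 3. KO 1 and KO 3 were high and KO 2 lay among the WT mice (log2 fold change 0.84, standard error 0.36, adjusted limma p = 0.841, exact permutation p = 0.3). The choroid plexus markers were high in the same 2 KO libraries, as given above, and their part in the *Hspb6* difference was not tested. *Hspb11* was likewise high in KO 1 and KO 3, with 27.1 and 21.4 FPKM there and 11.4 FPKM in KO 2, beside 9.20 to 15.2 FPKM in WT mice. *Hspb8*, which encodes the small heat shock protein that works with BAG3, had 59.7, 41.4 and 37.2 FPKM in WT 1 to 3 and 62.0, 25.9 and 69.6 FPKM in KO 1 to 3. Unlike *Bag3*, it was not lower in all KO mice. Of the 6 tested genes listed by name as small heat shock proteins, *Hspb11* among them, 5 had a higher mean and 1 a lower one.

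Among 8 J-domain proteins, 6 had a higher mean log2 value in KO mice and 2 a lower one, with 0 at an unadjusted limma p under 0.05. The smallest p belonged to *Dnajb4* (log2 fold change 0.49), *Dnaja2* (0.37) and *Dnajb6* (0.17). Of 8 HSP70 co-chaperones, 4 were higher and 4 lower in mean, and *St13*, which encodes the HSP70-interacting protein HIP, was higher in every KO mouse (58.7 to 66.1 FPKM) than in every WT mouse (40.7 to 55.4 FPKM, log2 fold change 0.42, adjusted limma p = 0.841, exact permutation p = 0.1). The other cytosolic HSP70 and HSP110 genes were split 4 and 4. *Hspa2* was lower in every KO mouse (8.57 to 10.3 FPKM) than in every WT mouse (10.8 to 15.4 FPKM), with a log2 fold change of −0.34 (adjusted limma p = 0.849, exact permutation p = 0.1).

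The chaperonin TRiC, which folds actin and tubulin, had 5 of 8 subunit genes higher and 3 lower in mean, with log2 fold changes between −0.10 (*Cct3*) and 0.21 (*Tcp1*). Of 6 further genes that HSF1 or stress can induce, 3 were higher and 3 lower, the largest being *Hspd1* (0.37), which encodes the mitochondrial HSP60, with 82.0 and 79.9 FPKM in KO 1 and KO 3, 42.9 FPKM in KO 2 and 48.6 to 51.9 FPKM in WT mice. Chaperones of the endoplasmic reticulum and mitochondria had 5 of 6 genes higher, led by *Hsp90b1* (0.36). Of the factors related to HSF1, *Hsf4* and *Hsf5* stayed under the filter. *Hsf2* had a log2 fold change of 0.59, at 7.24, 3.86 and 2.25 FPKM in WT 1 to 3 and 6.77, 11.5 and 3.54 FPKM in KO 1 to 3. Among these last 4 lists 0 genes had an unadjusted limma p under 0.05, and 0 had an adjusted one.

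**Figure D5:**
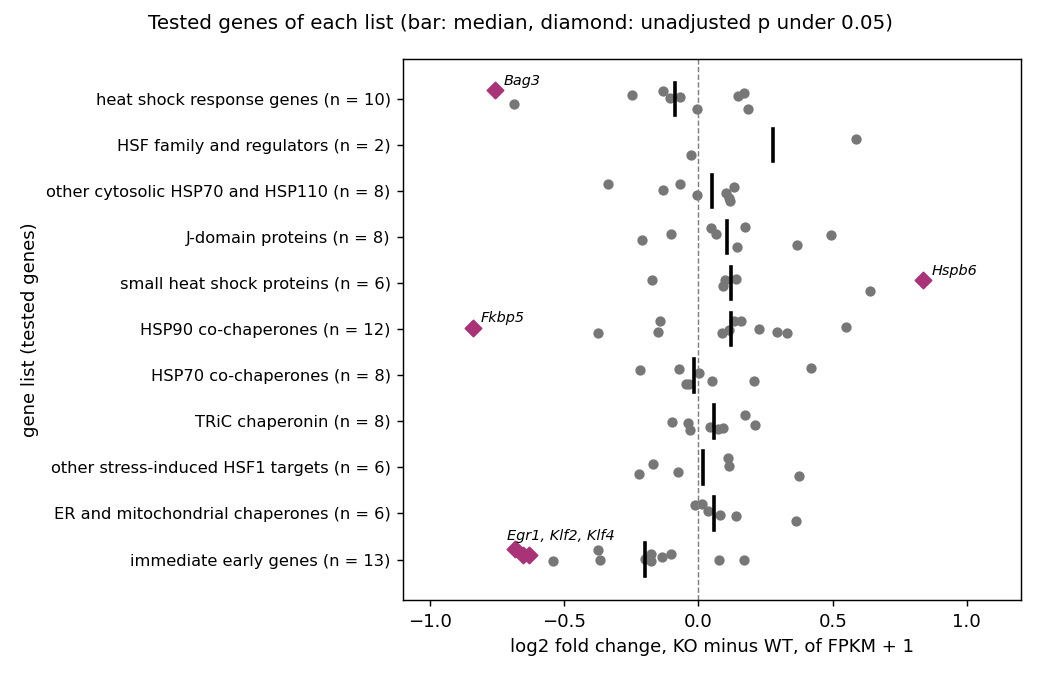
Log2 fold changes (KO minus WT, on log2(FPKM + 1)) of the tested genes of each list, 1 point per gene, with the list's median as a bar and genes at an unadjusted limma p under 0.05 as labelled diamonds. *Bag3*, *Hspb6* and *Fkbp5* are the diamonds among the chaperone genes, and *Egr1*, *Klf2* and *Klf4* those among the immediate early genes.

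Immediate early genes are switched on within minutes by stimulation, injury or dissociation, and were set beside the heat shock genes as a second sign of handling. Of 15 listed, 13 were tested, with 2 higher and 11 lower in mean in KO mice and a median log2 fold change of −0.20. Their summed FPKM was lower in every KO mouse (147 to 189) than in every WT mouse (198 to 239). This separation rested on *Klf2* and *Klf4*, since the other 13 listed genes summed to 135 to 163 FPKM in WT mice and 98.0 to 144 FPKM in KO mice. None passed adjustment (0 of 13), and 3 had an unadjusted limma p under 0.05, all lower in KO mice, which is 23.1% of the list beside 5.88% of all genes tested (3.11% lower in KO mice). These were *Klf2* (log2 fold change −0.65), *Klf4* (−0.63) and *Egr1* (−0.68). KLF2 and KLF4 are also endothelial factors that respond to blood flow.

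*Klf2* had 58.2, 48.5 and 40.5 FPKM in WT 1 to 3 and 30.8, 31.0 and 29.8 FPKM in KO 1 to 3, without overlap (exact permutation p = 0.1). *Fos* was low throughout, between 0.825 and 4.17 FPKM, and its groups overlapped. The part of handling in the *Bag3* and *Hspa1b* differences was not tested.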

How the data were processed

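RNA from cerebral microvessels was extracted with TRIzol, and paired-end libraries were prepared by a directional NEBNext kit. The authors trimmed reads with FASTX_Trimmer and BBMap, mapped them with TopHat (mm10 in the submitters' processing notes) and deposited FPKM values, 1 per gene symbol and library. The tool that gave FPKM, its annotation and any scaling between libraries are not given in the sources used here. Libraries were grouped by genotype, as in the sample titles.

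KO mice were compared with WT mice by limma 3.58.1 (R 4.3.3, trended prior variance, no added scaling) on log2(FPKM + 1), a scale that understates changes of low genes. Genes averaging 1 FPKM or more over the 6 libraries were fitted (14247), and p-values were adjusted over them (Benjamini-Hochberg). The study's DESeq2 needs counts and was not used. Single genes were also tested with exact two-sided permutation tests (scipy 1.17.1) on the same scale. The study counts 3 mice per group, and p-values measure the spread between them.

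Depth was estimated from the steps between FPKM values under 0.3, and fragments from the longest GENCODE M21 (GRCm38) transcript. These estimates depend on annotated lengths, and their errors cover counting only. Windows of 100 bases were compared over GENCODE M21 transcripts on both strands. The fit was tested on simulated data. The 10 genes and all lists were chosen with earlier results of these data known. All 10 are described, and other lists by counts and by genes with the smallest p or, as *Hspb8*, *Fos* and genes whose groups did not overlap, by values seen. Replicate numbers did not pair the libraries.

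The alternatives were another pseudocount (0.1), no filter or a filter of 5 FPKM, a trimmed-mean factor, quantile normalization, limma without the trend, a replicate block, loess corrections (span 0.3) of each library for GC content, with and without the block, or for transcript length, and leaving out each library. Scaling to the same FPKM sum was chosen after seeing the data.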

Additional observations from a re-analysis of the deposited data

How the results depend on the processing

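Over 168 values of single heat shock genes under the alternatives, 156 kept the direction of their log2 fold change and 12 did not, and 4 genes (*Bag3*, *Hspa1b*, *Hspb1*, *Hsp90aa1*) never changed direction. No alternative gave any of the 10 genes an adjusted limma p under 0.05 (0, with a lowest of 0.367). With the correction for transcript length, the log2 fold change of *Hsph1* was 0.020. With 1 library left out in turn, it ranged from −0.077 to 0.093 for *Hsph1*, −0.41 to 0.074 for *Hsf1*, −0.17 to 0.36 for *Hspa1a*, −0.075 to 0.36 for *Dnajb1*, −0.29 to 0.21 for *Hspa8* and −0.25 to 0.093 for *Hsp90ab1*. The median over the 10 genes ranged from −0.19 (without KO 1) to 0.065 (without KO 2), and *Hspb1* from −0.50 to −0.020. The pseudocount of 0.1 gave −1.05 for *Hspa1b*. The sign changed without WT 1, WT 2 or KO 3 for *Hsf1*, without WT 3 or KO 1 for *Hspa1a*, without WT 3 or KO 2 for *Hsph1* and *Hspa8*, without WT 3 for *Dnajb1* and without KO 2 for *Hsp90ab1*. The cause was not tested. The number of the 10 genes at an unadjusted limma p under 0.05 was 2, *Hspa1b* being the second, without a filter, with quantile normalization and without the trended variance, and ranged from 0 to 1 with 1 library left out (0 without WT 1 or WT 2). Over all genes, the number at an unadjusted p under 0.05 ranged from 450 (without WT 2) to 1871 (without KO 2), with 510 without KO 1, against 838 with all libraries, and the number with an adjusted p under 0.05 from 0 to 4 (4 without KO 2, 4 without KO 3 and 1 without WT 3). The filter of 5 FPKM left no value for *Hspa1a* and *Hspa1b*.

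The sample titles and the column headers number the libraries differently, and the title numbers were used. By these, same-numbered WT and KO libraries deviated together with correlations of 0.0375, 0.0267 and 0.00159, and the numbers were not taken as pairs. With the replicate block, 871 genes had an unadjusted limma p under 0.05, and *Bag3* had a p of 0.0176, or 0.0330 with the GC correction as well. Counting error reached 20.7% of the value for *Hspa1b* in KO mice.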
